A study of Homo sapiens with 16 samples.

Results

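The OAS and IFIT genes are families of antiviral effectors that cells switch on in response to interferon. Their mRNA levels were compared between H1299 cells with and without knockdown (KD) of YEATS2. Members were taken by gene symbol, and 7 of the 8 given (OAS2, OAS3, OASL, IFIT1, IFIT2, IFIT3 and IFIT5) were among the 12676 genes of the deposited table. OAS1 was not analysed here.

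The study concerns YEATS2, a subunit of the ATAC histone acetyltransferase complex, in non-small cell lung cancer. Of its 16 samples, 4 are mRNA-seq libraries of H1299, a p53-null human lung carcinoma line, and the 12 ChIP-seq samples were not used here. Both groups carried a lentiviral shRNA vector. The 2 shNT libraries (also labelled shCtrl) came from cells with a non-targeting shRNA, and the 2 shYEATS2 libraries came from cells with an shRNA against YEATS2. All cells were exposed to virus for 48 h with polybrene at 8 µg/ml and selected with puromycin at 2 µg/ml. The sample records give 4 to 7 days of selection, whereas the study's methods give at most 4 days. No library from cells without virus was compared, so the levels in shNT are those of infected and selected cells. The study describes RNA-seq in duplicate with a YEATS2 shRNA chosen for its efficient KD, and RNA-seq with a further shRNA that depleted YEATS2 partially. The labels do not name the hairpin of these libraries, and another hairpin was not analysed here. The study calls its replicates biological, but the labels do not say whether these were separate cultures, so the p-values measure only the spread between these libraries, which may be technical.

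The libraries held 34718921 to 39417787 counted reads, and reads are given below on a common scale set by TMM factors (trimmed mean of M values, 0.952 to 1.05). YEATS2 had 4482 and 4104 scaled reads in shNT and 665 and 673 in shYEATS2, a log2 fold change of -2.68 with a standard error of 0.10. The fold changes and false discovery rates (FDR) were computed by the quasi-likelihood method of edgeR, adjusted over all genes by Benjamini-Hochberg, and genes were called at an FDR under 0.01. Among markers of the line, KRT8, KRT18, KRT7 and VIM were in the table, EPCAM was not analysed here, and 0 of 6 leukocyte markers were listed. Of the 4 markers of the line, KRT7 was called higher, with 90.4 and 60.8 scaled reads in shNT and 236 and 207 in shYEATS2. The others were not called. Their groups did not overlap, but over all genes both KD libraries lay above both controls for 39.7% and below for 39.8%. KRT8 was above the controls in both KD libraries. KRT18 went from 20088 and 18402 to 13903 and 7983, and VIM from 111115 and 114660 to 96178 and 78728. The part of these markers in the results was not tested. In bulk RNA, fewer cells with a transcript and less of it per cell cannot be told apart.

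In the textbook pathway, double-stranded RNA binds and activates the synthetases OAS1, OAS2 and OAS3. They make chains of adenylate known as 2-5A, a messenger that sets off the breakdown of RNA in the cell. OASL belongs to the same family but makes no 2-5A, and instead enhances signaling by the RNA sensor RIG-I. IFIT proteins bind RNA directly and hinder the translation of foreign mRNA, and their genes lie side by side on one chromosome.

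OASL and the IFIT2 and IFIT3 pair were called higher in shYEATS2, OAS2 and IFIT1 had higher levels in both KD libraries without being called, and IFIT5 and OAS3 were not called and stayed nearest to the controls. The calls were thus 3 higher and 0 lower among the 7 members, where 12.9% of all genes were called higher and 12.5% lower. Both KD libraries lay above both shNT libraries for 6 members, where 39.7% of all genes did so. For OAS3 both lay below, as for 39.8% of all genes. The families were selected on earlier results of this same contrast, the fold changes between shYEATS2 and shNT, so the counts describe the members and test nothing. Every listed gene had at least 101 reads in some library, and OAS2 and OASL reached that only in replicate 2 of shYEATS2. A gene silent in the controls could be listed only where it was high in KD, which bears on these counts and on the median. The median log2 fold change of the 7 members was 2.27, and the median of all genes was -0.0019.

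**Figure D1:**
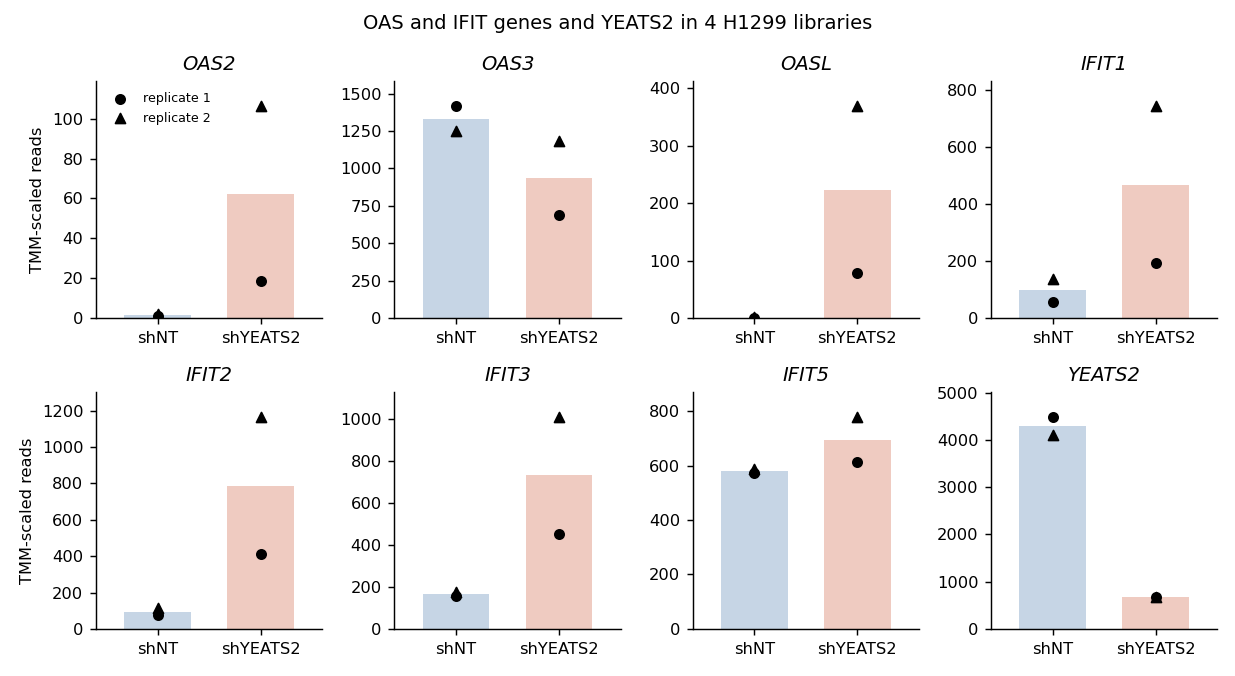
TMM-scaled reads of each measured OAS and IFIT gene and of YEATS2 (vertical axes, linear from 0, a separate range per gene) in the shNT and shYEATS2 groups. Bars are means of 2 libraries and points are the libraries. Replicate 2 of shYEATS2 (triangle) lies above replicate 1 (circle) for all 7 members, and YEATS2 had 665 and 673 reads in replicates 1 and 2.

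The synthetases themselves did not move together. OAS3, which contains several synthetase units in tandem, had 1414 and 1252 scaled reads in shNT and 687 and 1186 in shYEATS2. Replicate 1 of shYEATS2 was well below the controls, and replicate 2 only just below. Its log2 fold change of -0.51 (standard error 0.24) was not called, with an edgeR quasi-likelihood FDR of 0.118. The place of replicate 2 depended on the scaling: with total counts in place of TMM factors it had 1236 reads, between the shNT values of 1342 and 1208. Without replicate 2 of shYEATS2, OAS3 was called lower, at a log2 fold change of -0.96 (edgeR quasi-likelihood FDR 0.00309).

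OAS2 was almost silent in the controls. It had 1 and 2 unscaled reads in shNT and 19 and 120 in shYEATS2, so both KD libraries were higher and differed several-fold from each other. Over both KD libraries the ratio to shNT was 39.9, with a 95% exact counting interval of 13.4 to 196. For replicate 1 alone the ratio was 11.5 (3.39 to 60.8), and for replicate 2 alone 65.5 (21.9 to 322). These intervals cover counting error only. The fitted log2 fold change of 5.18 (standard error 1.21), which depends on the small count added to each library, missed the threshold with an edgeR quasi-likelihood FDR of 0.0134. OAS2 was called by DESeq2 (FDR 2.13e-05), with upper quartile scaling (edgeR quasi-likelihood FDR 0.00976) and without replicate 1 of shYEATS2 (0.000382).

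OASL, the relative without synthetase activity, had the highest fitted log2 fold change of the 12676 listed genes. That rank tests nothing, because a gene this low in the controls was listed only if its KD reads were high. Its unscaled reads were 0 and 2 in shNT and 80 and 417 in shYEATS2. As with OAS2, a gene barely counted in the controls was plainly present in both KD libraries, and more so in replicate 2. The ratio over both KD libraries was 214, with a counting interval from 59.0 to 1773. Replicate 1 gave 72.8 (19.5 to 611) and replicate 2 gave 341 (93.9 to 2827). The fitted log2 fold change came to 7.54 (standard error 1.25, edgeR quasi-likelihood FDR 0.00416), and again its size rests on the 2 control reads.

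Because OAS3 accounts for nearly all reads of its family in the controls, the summed level of the 3 measured OAS genes did not follow OAS2 and OASL. The sum was 1415 and 1256 scaled reads in shNT and 784 and 1660 in shYEATS2, so the groups overlapped, and the ratio of means was 0.915. The 4 IFIT genes together had 866 and 1012 scaled reads in shNT and 1671 and 3692 in shYEATS2. That is 2.86 times the control mean, with both KD libraries above both controls.

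Among the IFIT genes, IFIT2 had the largest fold change. IFIT2, which binds AU-rich RNA and pairs with other IFIT proteins, had 76.4 and 113 scaled reads in shNT and 412 and 1164 in shYEATS2. The lower KD library held more than 3 times the reads of the higher control library. The log2 fold change came to 3.06 (standard error 0.50, edgeR quasi-likelihood FDR 0.00405).

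IFIT3, which stabilizes IFIT1 and strengthens its RNA binding, had 158 and 174 scaled reads in shNT and 453 and 1007 in shYEATS2. The controls were close to each other and both KD libraries were well above them. The log2 fold change came to 2.14 (standard error 0.36, edgeR quasi-likelihood FDR 0.00446). IFIT2, IFIT3 and OASL were called higher under every alternative setting tried, including each library left out in turn.

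IFIT1, which recognizes mRNA whose cap lacks ribose methylation, had 58.1 and 137 scaled reads in shNT and 194 and 743 in shYEATS2. The groups did not overlap, but replicate 1 of shYEATS2 was nearer to the higher control than to the other KD library. The log2 fold change of 2.27 (standard error 0.65) did not pass the threshold, with an edgeR quasi-likelihood FDR of 0.0276. Without replicate 1 of shYEATS2 it did, at 2.93 and an FDR of 0.00105 in the same test.

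IFIT5, which binds RNA with a triphosphate end, had 573 and 589 scaled reads in shNT and 613 and 778 in shYEATS2. Both KD libraries were above the controls, replicate 1 by a small margin. Its log2 fold change was 0.26 (standard error 0.14, edgeR quasi-likelihood FDR 0.175). In replicate 1 the ratio to shNT was 1.05 with a counting interval of 0.954 to 1.17, and in replicate 2 it was 1.34 (1.22 to 1.46).

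**Figure D2:**
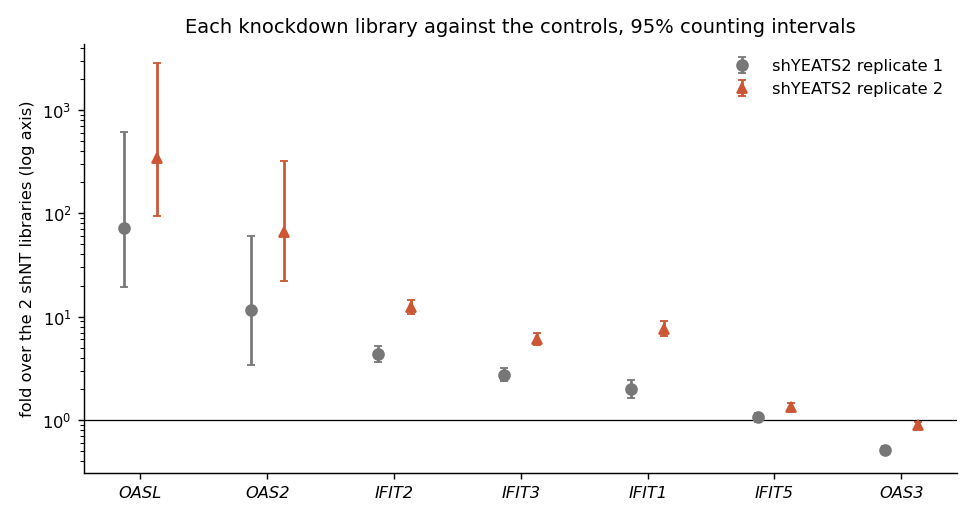
Ratio of each shYEATS2 library to the 2 shNT libraries together (vertical axis, logarithmic, horizontal line at 1) for the 7 measured genes, with 95% exact counting intervals that leave out the spread between libraries of a group. OASL stood at 72.8 and 341 in replicates 1 and 2, IFIT5 at 1.05 and 1.34, and OAS3 at 0.515 and 0.889.

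The KD replicates differed from each other in these genes. For every one of the 7 members, replicate 2 of shYEATS2 exceeded replicate 1, with a median ratio of 2.83, against a median of 0.997 over all genes. Between the shNT replicates the same ratio had a median of 1.29 for the members without OASL, which had 0 reads in replicate 1, and 1.00 for all genes. With OASL ranked as the highest ratio, the median member was IFIT2, at 1.48. The median log2 ratio of the members to shNT was 1.45 in replicate 1 and 2.93 in replicate 2. YEATS2 mRNA itself was at 0.155 of the control level in replicate 1 and at 0.157 in replicate 2. The part of KD depth in the difference between these libraries was not tested.

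Few genes differed this much between the KD replicates. In all, 64 genes had more than 2 times as many scaled reads in replicate 2 of shYEATS2 as in replicate 1, and 5 of the 64 were OASL, IFIT2, IFIT3, OAS2 and IFIT1. Another 5 were among the 32 measured genes of a list of other interferon-stimulated gene (ISG) effectors: IFI6, IFI44, BST2, PARP10 and IFI16. Replicate 2 exceeded replicate 1 for 28 of those 32 genes, with a median ratio of 1.33, and for 6257 of all 12676 genes. Of the members and effectors just named, OAS2, OASL, IFI44, BST2, PARP10 and IFI16 reached the 101 reads found in every listed gene only in replicate 2 of shYEATS2. Genes as low elsewhere and not high in that library are absent, so these counts test nothing.

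**Figure D3:**
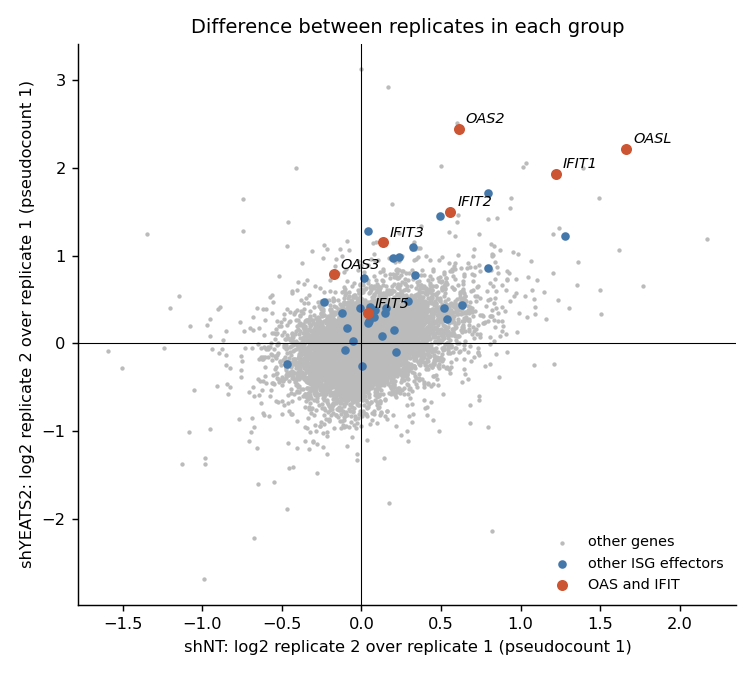
Difference between replicates within shNT (horizontal axis) and within shYEATS2 (vertical axis), each as log2 of replicate 2 over replicate 1 of scaled reads plus a pseudocount of 1, for all 12676 genes. All 7 OAS and IFIT genes lie above 0 on the vertical axis, as do 28 of the 32 other ISG effectors, while the median gene had a ratio of 0.997.

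Levels of different members were compared per kilobase of the canonical transcript. In shNT, OAS3 was the most abundant at a mean of 202 scaled reads per kb, followed by IFIT5 (144), IFIT3 (69.4), IFIT2 (27.9) and IFIT1 (22.6). IFIT2 and IFIT1 overlapped between libraries, though IFIT2 was the higher within each. OAS2 (0.351) and OASL (0.332) lay far below and could not be ordered from 3 and 2 reads. OAS3, IFIT5 and IFIT3 each lay above IFIT2 and IFIT1 in both shNT libraries.

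In shYEATS2 the means per kb ran from IFIT3 (305) through IFIT2 (232), IFIT5 (173), OAS3 (142), IFIT1 (109) and OASL (68.4) to OAS2 (13.5). Each neighboring pair in that order overlapped between libraries, except that OAS2 (4.04 and 23.0) lay below OASL (24.0 and 113). Compared within a library, every neighboring pair kept its order in both, apart from IFIT2 and IFIT5. Within replicate 2 alone, IFIT3 (421) and IFIT2 (343) were above IFIT5 (193) and OAS3 (180), whereas in replicate 1 IFIT2 (121) remained below IFIT5 (152).

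**Figure D4:**
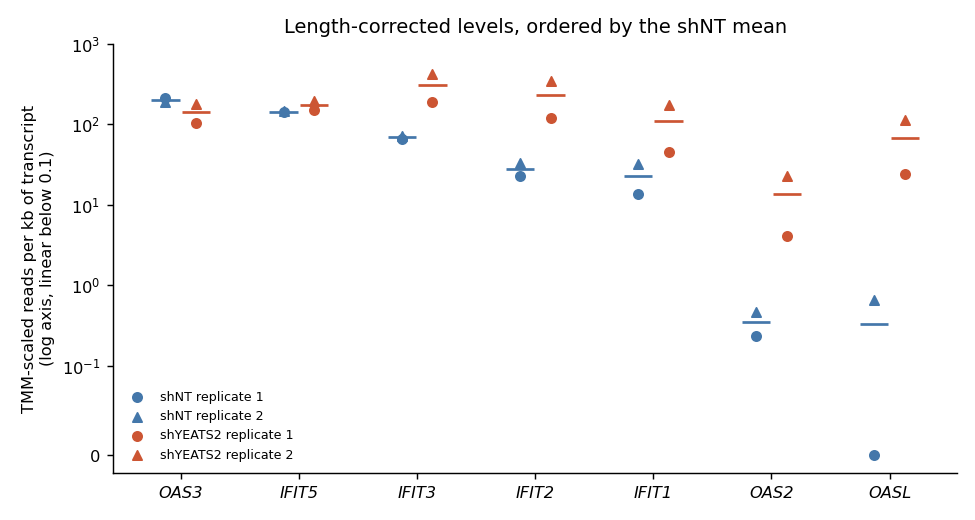
Scaled reads per kilobase of canonical transcript (vertical axis, logarithmic, linear below 0.1) for the 7 genes, ordered by their shNT mean. Points are libraries and short lines are group means; OAS3 and IFIT5 lead in shNT at 202 and 144, and IFIT3 and IFIT2 lead in shYEATS2 at 305 and 232.

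In the genome build of the files (GRCh37), the measured IFIT genes follow one another on the plus strand of chromosome 10, IFIT2 from 91043451 to 91069028, IFIT3 from 91087064 to 91137230, IFIT1 from 91152303 to 91166244 and IFIT5 from 91174325 to 91181362. Along the row, IFIT2 and IFIT3 were called higher, and IFIT1 and IFIT5 were not. OAS3 (113375856 to 113414265) and OAS2 (113416200 to 113449528) are neighbors on the plus strand of chromosome 12, and neither was called. OASL lies apart on the minus strand of the same chromosome, from 121455566 to 121477049. The span of LIPA, a lysosomal lipase gene on the opposite strand, covers IFIT2, IFIT3 and IFIT1 and ends just before IFIT5. No exon of a measured member's canonical transcript overlaps an exon of another gene. Exons of the members' other transcripts were not checked. The kit did not mark strand.

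Interferon acts on these genes through promoter elements built around paired GAAA words, to which interferon regulatory factors and the ISGF3 complex bind. The promoters in hand, from RefSeq on GRCh38.p14, cover 5 of the 8 genes, and those of OAS2, OASL and IFIT2 were not among them. The letters GAAANNGAAA, or TTTCNNTTTC for the other strand, were searched from 250 bases before to 50 after each start, and no matches overlapped. The sequences are shown because genes with unlike fold changes carry the same letters. The 160 bases before each start are printed on the gene's strand, which is the plus strand for all 4, with whole matches in capitals. They span chr12:112938314-112938473 for OAS3, chr10:89392463-89392622 for IFIT1, chr10:89332369-89332528 for IFIT3 and chr10:89414408-89414567 for IFIT5.
OAS3: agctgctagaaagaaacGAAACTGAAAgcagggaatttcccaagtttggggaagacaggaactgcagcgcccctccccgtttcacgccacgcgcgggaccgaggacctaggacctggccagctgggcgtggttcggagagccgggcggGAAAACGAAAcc
IFIT1: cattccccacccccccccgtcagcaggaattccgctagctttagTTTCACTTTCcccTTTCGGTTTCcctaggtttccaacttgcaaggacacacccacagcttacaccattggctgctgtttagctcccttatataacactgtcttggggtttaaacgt
IFIT3: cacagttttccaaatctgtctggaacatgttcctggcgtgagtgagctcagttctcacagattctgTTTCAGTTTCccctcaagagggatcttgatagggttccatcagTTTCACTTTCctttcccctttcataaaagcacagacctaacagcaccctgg
IFIT5: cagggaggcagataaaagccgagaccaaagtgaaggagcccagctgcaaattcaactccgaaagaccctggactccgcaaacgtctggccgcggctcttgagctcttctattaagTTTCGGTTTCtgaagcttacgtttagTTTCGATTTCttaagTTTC

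OAS3 and IFIT1 each held 2 matches, IFIT3 held 2 in each of its 2 listed promoters, one of which is shown, and IFIT5 held 3, the last of them running across the start and therefore not wholly shown. OAS1 held none, and no match says only that these letters are not in this window. Of all 35116 promoters, 3.57% held at least 1 match and 0.259% held 2 or more. By gene, the share was 24 of the 37 listed ISG effectors with a promoter, 3 of 14 genes of RNA sensing and interferon signaling, and 4.38% of all genes. A match describes letters, not binding: IFIT5 and IFIT1 both carry several, at log2 fold changes of 0.26 and 2.27.

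Among the genes that act on 2-5A, PDE12 was called lower. PDE12, a phosphodiesterase that breaks 2-5A down, had 2985 and 2895 scaled reads in shNT and 2070 and 1916 in shYEATS2. Both KD libraries were below both controls (log2 fold change -0.56, standard error 0.10, edgeR quasi-likelihood FDR 0.00449). This call was lost without either shNT library and without replicate 2 of shYEATS2.

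AKAP7, whose product also degrades 2-5A, had 442 and 508 scaled reads in shNT and 357 and 283 in shYEATS2, and was not called (-0.57, standard error 0.16, edgeR quasi-likelihood FDR 0.0265). ABCE1, a ribosome recycling factor, had 7318 and 6479 scaled reads in shNT and 6253 and 5523 in shYEATS2. It was not called either (-0.23, edgeR quasi-likelihood FDR 0.129). Unlike the OAS and IFIT genes, PDE12, AKAP7 and ABCE1 all had fewer reads in replicate 2 of shYEATS2 than in replicate 1.

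The other ISG effectors had a lower median than the OAS and IFIT genes. Of the 44 genes on the list, 32 were in the table, 3 were called higher (9.38%) and 1 lower (3.12%), against 12.9% and 12.5% of all genes. Their median log2 fold change was 0.25, against -0.0019. LGALS3BP, a secreted glycoprotein that binds galectins, had 225 and 392 scaled reads in shNT and 1285 and 2335 in shYEATS2 (log2 fold change 2.55, standard error 0.35, edgeR quasi-likelihood FDR 0.00230). IFI44 had 6.46 and 11.9 in shNT and 50.1 and 167 in shYEATS2 (3.56, standard error 0.71, FDR 0.00780 in the same test). In these genes, as in the members, replicate 2 of shYEATS2 was the higher.

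SP100, a nuclear body protein, was called higher by less, from 908 and 873 scaled reads to 1281 and 1309 (0.54, edgeR quasi-likelihood FDR 0.00602). TRIM25, the ubiquitin ligase that acts on RIG-I, was called lower, from 6965 and 6979 to 5115 and 4290 (-0.57, edgeR quasi-likelihood FDR 0.00731). In the same list 25 of 32 genes had a log2 fold change above 0, as did 6326 of all 12676 genes. In 15 both KD libraries were above both controls, where 39.7% of all genes did so. The groups overlapped in 14, and in 2590 of all 12676 genes. The number called higher ranged from 1 to 11 when a library was left out, with 11 without replicate 1 of shYEATS2 and 1, LGALS3BP, without replicate 2 of shYEATS2 or without replicate 1 of shNT. The SP100 and TRIM25 calls were both lost without either shNT library and without replicate 2 of shYEATS2, and that of TRIM25 also with total counts.

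Genes that act upstream of the families had smaller fold changes. Of 23 genes of RNA sensing and interferon signaling 18 were measured, 4 were called higher (22.2%) and 0 lower, against 12.9% and 12.5% of all genes. The median log2 fold change was 0.34. STAT2, a subunit of ISGF3, had 1242 and 1492 scaled reads in shNT and 2002 and 2469 in shYEATS2, and was called higher (0.71, edgeR quasi-likelihood FDR 0.00765). IRF9 was not analysed here.

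Of the interferon regulatory factors, IRF1 was called higher, from 670 and 529 scaled reads to 915 and 1008 (0.68, edgeR quasi-likelihood FDR 0.00962). IRF7, itself an interferon-induced gene, had 257 and 274 in shNT and 408 and 674 in shYEATS2 (1.03, edgeR quasi-likelihood FDR 0.0134). IRF3, which is present before infection and activated by phosphorylation, had 1881 and 1894 in shNT and 1632 and 1678 in shYEATS2 (-0.19, edgeR quasi-likelihood FDR 0.123). Neither IRF7 nor IRF3 passed the threshold.

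The remaining calls in this list were TMEM173 and JAK1. TMEM173, which encodes the DNA-sensing adaptor STING, had 299 and 460 scaled reads in shNT and 695 and 1026 in shYEATS2 (1.18, edgeR quasi-likelihood FDR 0.00993). JAK1, a kinase of the interferon receptors, had 6740 and 6501 in shNT and 9136 and 10136 in shYEATS2 (0.54, edgeR quasi-likelihood FDR 0.00559). The number called in the list ranged from 1, without replicate 2 of shYEATS2, to 8, without replicate 1, and was 2 without either shNT library. Without replicate 2 of shYEATS2 the call left was DDX58, and those of STAT2, IRF1, TMEM173 and JAK1 were lost. Without replicate 1 of shNT, IRF1 was the one of these 4 still called, and without replicate 2 of shNT, STAT2 and TMEM173 were. Of 8 interferon genes, the ligands of the pathway, 0 were listed in the table, whose least counted gene had 101 reads in its highest library. Interferon mRNA below that level could not be seen.

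**Figure D5:**
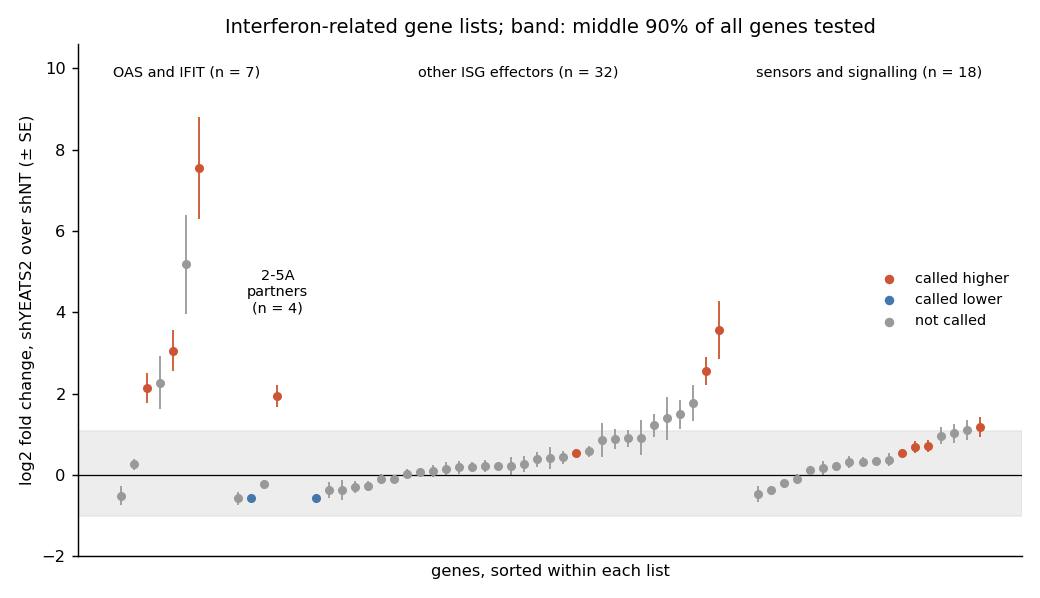
Fitted log2 fold change of shYEATS2 over shNT with its standard error (vertical axis) for each measured gene of the 4 lists, sorted within a list, colored by call at an FDR under 0.01. The grey band holds the middle 90% of all genes tested, up to 1.09, and above it lie 5 of the 7 OAS and IFIT genes, 6 of the 32 other ISG effectors and 2 of the 18 sensing and signaling genes.

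Outside the families, the genes whose pattern over the 4 libraries was most like the median pattern of the 7 members were TNXB, FLRT3, NGFR, COL4A5 and VGLL2. Likeness was the root mean square difference of log2 scaled reads (pseudocount 1, relative to the shNT mean), and ran from 0.108 for TNXB to 0.232 for VGLL2. TNXB, an extracellular matrix glycoprotein gene, had 40.9 and 62.9 scaled reads in shNT and 161 and 446 in shYEATS2. FLRT3, a membrane protein of cell adhesion, had 11.8 and 14.1 in shNT and 42.3 and 103 in shYEATS2. The genes were picked for this likeness, so their high levels in replicate 2 of shYEATS2 follow from the choice. FLRT3 and NGFR reached the 101 reads found in every listed gene only in that library. The 4 libraries give few points for such a ranking.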

How the data were processed

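Counts of 4 H1299 mRNA-seq libraries (2 shNT, 2 shYEATS2, grouped by their labels) were analysed. The authors deposited whole-number read counts per gene, without normalization, in 1 table of 12676 genes that also holds 3 columns of their own comparison (fold change, p-value, FDR), which were not used. The study's methods name the RNA-Seq unified mapper, hg19 and HTSeq with default settings, and the submitters' processing notes name TopHat2 2.0.10 and HTSeq 0.6.1p1. The TruSeq kit was unstranded. The least counted gene had 101 reads in its highest library, so weakly expressed genes are outside the table.

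Counts were scaled by TMM factors and fitted with edgeR 4.0.16 (limma 3.58.1, R 4.3.3) by the quasi-likelihood method, without a replicate term. A minimum of 10 reads in 2 or more libraries removed no gene. P-values were adjusted over all genes by Benjamini-Hochberg and called at an FDR under 0.01. The biological coefficient of variation was 0.107. Alternatives were DESeq2 1.42.0, edgeR's exactTest, other scalings, filters and thresholds, a replicate block and each library left out. Counting intervals are exact binomial, at 95%. The scripts were tested on simulated data. Positions and lengths were matched by symbol and ID to GENCODE release 44 on GRCh37 (98.3% of genes).

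The members and all gene lists were chosen with earlier results of these data known, so their values are descriptions. Named were the members, YEATS2, the 2-5A genes, the 5 largest rises and 3 largest falls past the threshold in each list, STAT2, IRF1, IRF3, IRF7 and IRF9, and the 5 genes nearest in pattern. Some genes that this rule names are not reported here. IFI6, BST2, PARP10, IFI16, DDX58, KRT8, KRT18, KRT7, VIM, KIF20B, CAMKK2 and LIPA were named after their values were seen.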

Additional observations from a re-analysis of the deposited data

How the results depend on the processing

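With 2 libraries a group, a call rests on few values, and leaving out a library leaves 1 in that arm, which is assumed to vary like the others. No member, called or not, changed sign. The number of OAS and IFIT genes called higher was 3 and became 5 with exactTest, with the replicate block and at an FDR under 0.05. With a library left out it ranged from 3 to 5, with 5 without replicate 1 of shYEATS2. The added genes were OAS2 and IFIT1 each time, and DESeq2 and upper quartile scaling added OAS2 alone. Their median log2 fold change ranged from 1.45 to 3.01 with a library left out. For YEATS2 that range was -2.74 to -2.62.

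Over all genes, 1630 were called higher, against 2596 with exactTest, 2742 with the replicate block, 3093 at an FDR under 0.05 and 775 to 1991 with a library left out. The 1581 lower calls became 2497, 2715, 3011 and 850 to 2032 in the same order.

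Of the other ISG effectors 3 were called higher, against 7 with DESeq2, 9 with exactTest, 6 with total counts, 10 with the replicate block, 9 at an FDR under 0.05 and 1 to 11 with a library left out. Of the sensing and signaling genes 4 were called higher, against 7, 8, 8, 7 and 9 in the same order and 1 to 8 with a library left out. The all-gene median log2 value, -0.0019, was 0.12 with total counts. Of the 2-5A genes 2 were called, and 1 with a mean count of at least 100, or 1 to 2 with a library left out.

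The replicate block was not the main fit because the shared replicate numbers are only numbers in the labels. Deviations of same-numbered libraries from their group means correlated at 0.41 over 12123 genes. With the replicate block the FDR (edgeR quasi-likelihood test) was 0.00013 for OAS2 and 8.66e-05 for IFIT1. Depth limits OAS2 and OASL, whose ratios rest on 3 and 2 control reads.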

Other observations

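Genes beside the OAS and IFIT loci were looked at after the members' values were known. The 3 protein-coding genes on each side of the OAS1-OAS3-OAS2, OASL and IFIT loci, with those inside them, numbered 20, and 11 were in the table. Of these 11, 1 was called higher and 3 lower, where 12.9% of all genes were called higher and 12.5% lower. Higher was CAMKK2, a kinase gene 198 kb from OASL (log2 fold change 0.47, edgeR quasi-likelihood FDR 0.00768). KIF20B, a mitotic kinesin gene 280 kb from the IFIT row, was among those called lower (-0.96). LIPA, whose span covers IFIT2, IFIT3 and IFIT1 but not IFIT5, had a log2 fold change of 0.59 and was not called (edgeR quasi-likelihood FDR 0.0116).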
